A study of Homo sapiens with 12 samples.

Results

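The 10 genes described here are 4 enzymes on the route to the ganglioside GD2 and 6 surface molecules that serve as immunotherapy targets in neuroblastoma, taken by name from the 19923 genes in the count tables: B4GALNT1, ST8SIA1, ST3GAL5, UGCG, CD276, GPC2, L1CAM, NCAM1, SSTR2 and CD47. All 10 were found, and all 10 passed the filter on low counts (edgeR's filterByExpr) used for the values given. The rule names genes and sets no threshold on a measured value, but it was written with earlier results of these data known. RNA was sequenced from a pair of established neuroblastoma lines of human origin, SK-N-BE2 and NGP, whose labels give wild-type (WT) genotype and amplified MYCN. Each line was kept for 6 days in medium with serum and either DMSO, the solvent control, or STM2457, an inhibitor of the RNA methyltransferase METTL3. The STM2457 dose was 12 µM in SK-N-BE2 and 1 µM in NGP, and each of the 4 groups had 3 replicates. Each model is 1 cell line, and the labels name no other cells in the cultures. Cell line, dose and sequencing run cannot be told apart, and the labels do not say that replicates were separate cultures, so p-values measure only the spread between these samples.

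Gangliosides are sialic acid-bearing glycolipids of the plasma membrane that are built one sugar at a time. UGCG adds glucose to ceramide, B4GALT5 and B4GALT6 add galactose to give lactosylceramide, ST3GAL5 adds a sialic acid to give GM3, ST8SIA1 adds another to give GD3, and B4GALNT1 turns GD3 into GD2. GD2 is abundant on neuroblastoma cells and is the antigen of the antibodies dinutuximab and naxitamab. CD276 (B7-H3), GPC2, L1CAM and NCAM1 are proteins against which antibodies or engineered T cells have been directed, SSTR2 binds the radiolabelled somatostatin analogues used for imaging and therapy, and CD47 is the signal that restrains engulfment by macrophages. The libraries measured RNA only; GD2 and the surface proteins themselves were not measured.

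The promoters are shown because 6 of the 10 genes rose together in SK-N-BE2, but the windows include genes not called there. RefSeq (GRCh38.p14) start sites were matched for 8 of the 10 genes, in 14 windows of 250 bases before a start; those of B4GALNT1 and NCAM1 were not analysed here. Below, 1 window is shown for each of the 3 matched enzymes and for CD276 and CD47, the first listed for the gene, printed 5′ to 3′ on the gene's strand, with capitals for the GC box (GGGCGG or, on the other strand, CCGCCC), the CCAAT box (CCAAT or ATTGG) and the E-box (CACGTG, its own reverse complement). Neighbouring GC boxes may overlap.
UGCG (chr9:111896564-111896813, plus strand): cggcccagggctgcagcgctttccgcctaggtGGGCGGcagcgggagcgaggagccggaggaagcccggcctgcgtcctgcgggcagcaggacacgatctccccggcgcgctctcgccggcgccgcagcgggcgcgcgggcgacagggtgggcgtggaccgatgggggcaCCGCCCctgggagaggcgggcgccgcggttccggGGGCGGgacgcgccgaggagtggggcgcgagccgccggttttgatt
ST3GAL5 (chr2:85888991-85889240, minus strand): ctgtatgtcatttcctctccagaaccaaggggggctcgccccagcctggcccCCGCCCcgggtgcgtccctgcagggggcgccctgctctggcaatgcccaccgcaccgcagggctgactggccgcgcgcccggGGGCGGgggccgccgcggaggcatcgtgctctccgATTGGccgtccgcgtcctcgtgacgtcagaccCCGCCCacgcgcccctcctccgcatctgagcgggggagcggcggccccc
ST8SIA1 (chr12:22334708-22334957, minus strand): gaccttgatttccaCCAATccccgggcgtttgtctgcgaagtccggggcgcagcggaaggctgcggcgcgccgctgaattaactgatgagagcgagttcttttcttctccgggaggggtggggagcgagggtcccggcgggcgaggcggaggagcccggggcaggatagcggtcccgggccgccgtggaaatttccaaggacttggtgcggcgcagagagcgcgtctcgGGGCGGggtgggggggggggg
CD276 (chr15:73684133-73684382, plus strand): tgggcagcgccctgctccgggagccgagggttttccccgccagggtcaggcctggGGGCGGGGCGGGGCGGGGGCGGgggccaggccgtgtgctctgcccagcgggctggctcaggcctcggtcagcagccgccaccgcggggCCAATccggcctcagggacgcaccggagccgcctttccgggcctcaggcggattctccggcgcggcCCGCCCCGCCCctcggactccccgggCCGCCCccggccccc
CD47 (chr3:108091032-108091281, minus strand): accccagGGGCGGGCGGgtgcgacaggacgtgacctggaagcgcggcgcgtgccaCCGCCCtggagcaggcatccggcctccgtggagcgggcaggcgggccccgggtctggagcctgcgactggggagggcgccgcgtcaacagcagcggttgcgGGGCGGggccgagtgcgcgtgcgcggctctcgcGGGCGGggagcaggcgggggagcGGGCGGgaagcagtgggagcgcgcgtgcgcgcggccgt
A GC box was present in 12 of the 14 windows, against 42.6% of 35116 RefSeq promoters of the same length. All windows of ST8SIA1, L1CAM and SSTR2, which were not called in SK-N-BE2, held a GC box too. Whether the boxes bear on the responses was not tested. A CCAAT box was present in 7 of 14, against 32.0%, and the E-box letters in 0 of 14, against 6.34%. Several windows of ST3GAL5 overlap each other, as do those of L1CAM. The 14 windows come from 8 genes, so they are not independent, and shared boxes are counted more than once. The windows printed were rich in G and C, at 69.2% in ST8SIA1, 76.0% in ST3GAL5, 78.4% in UGCG, 79.6% in CD47 and 80.8% in CD276, against a median of 58.0% over all promoters. ST3GAL5 has 5 windows in all, and the 2 that lie farthest downstream held 52.8% and 52.0% G and C and no GC box. CD276 has another window, at 77.2%. These matches describe letters only and say nothing of binding.

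The libraries held between 47242379 and 58159937 counted reads. One NGP control, DMSO replicate 1, was unlike the other two: without it, the number of genes called in NGP went from 5671 to 7897. The NGP fold changes of CD276 and CD47 are therefore also given without it. Other NGP values include this library and may depend on it too. The adrenergic neuroblastoma marker list was present in each group, with 9 of 10 genes at 1 CPM (counts scaled to a fixed library total, with TMM) or more. In NGP the exception was TH, the first enzyme of catecholamine synthesis, at 0.514 CPM with DMSO, against 235 CPM in SK-N-BE2. Immune, endothelial, Schwann and epithelial marker lists each summed to at most 11.2 CPM in any library. The 5 fibroblast or mesenchymal markers summed to 87.9 to 100.4 CPM with DMSO and 162 to 176 CPM after STM2457 in SK-N-BE2, and to 183 to 203 CPM and 427 to 481 CPM in NGP. Their part in the responses below was not tested. In bulk RNA, fewer cells of a type and less RNA per cell cannot be told apart. METTL3 RNA rose with STM2457 by 0.52 (SE 0.08) on the log2 scale in SK-N-BE2 and by 0.92 (SE 0.11) in NGP, with edgeR's adjusted p of 0.000106 and 0.0003. Its responses, SK-N-BE2 minus NGP, differed by -0.39 (SE 0.12, edgeR's adjusted p 0.0279), a call lost in 7 of the 12 fits without 1 library: SK-N-BE2 DMSO replicate 1, SK-N-BE2 STM2457 replicate 1, 2 or 3, NGP DMSO replicate 3, or NGP STM2457 replicate 1 or 3 (edgeR's adjusted p up to 0.0771).

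With STM2457, the GD2 enzyme route responded differently in the lines. In SK-N-BE2, B4GALNT1, ST3GAL5 and UGCG rose, ST8SIA1 was near the detection limit, and CD276, GPC2 and CD47 rose as well. In NGP, B4GALNT1 and CD47 rose, while ST8SIA1, NCAM1 and SSTR2 fell. In SK-N-BE2, 6 of the 10 genes were called (edgeR quasi-likelihood test, adjusted p under 0.05 over all genes), against 54.7% of the 14013 genes tested, a share near the background. All 6 rose, against 26.9% of genes called higher, and 0 fell, against 27.8% called lower. In NGP, 5 of the 10 were called, against 41.7% of 13610 genes tested, 2 higher (19.4% of all genes) and 3 lower (22.2%). Both counts in NGP were close to those of all genes. The median log2 fold change of the 10 genes was 0.39 in SK-N-BE2, against -0.02 over all genes, and -0.02 in NGP, against -0.03.

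**Figure D1:**
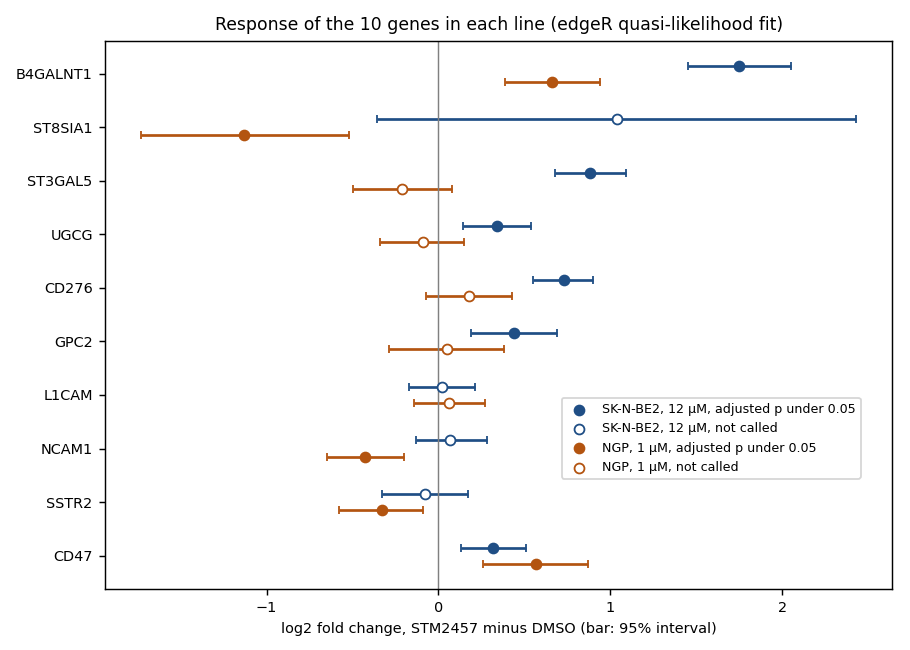
Log2 fold change, STM2457 minus DMSO (x axis), of each of the 10 genes (y axis) in SK-N-BE2 (blue) and NGP (orange), with 95% intervals over 3 replicates per group; filled points have an adjusted p by edgeR under 0.05. B4GALNT1 lies right of 0 in both lines, ST8SIA1 has a wide interval in SK-N-BE2 and lies left of 0 in NGP, and ST3GAL5, UGCG, CD276 and GPC2 are called in SK-N-BE2 alone.

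The response itself differed between the lines for 6 of the 10 genes in a test of that difference over all 12 libraries, against 30.9% of 14731 genes. In all 6 the difference, SK-N-BE2 minus NGP, was positive, against 17.0% of all genes called positive and 13.9% called negative. The 6 were B4GALNT1, ST8SIA1, ST3GAL5, UGCG, CD276 and NCAM1. The median difference of the 10 genes was 0.48 log2, against 0.02 over all genes. This test uses the same libraries as the fits of each line and is not separate evidence. Called in both lines with the same sign were 2 of the 10 genes, B4GALNT1 and CD47, against 21.3% of the 12952 genes tested in both, and 0 were called with opposite signs, against 4.96%.

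**Figure D2:**
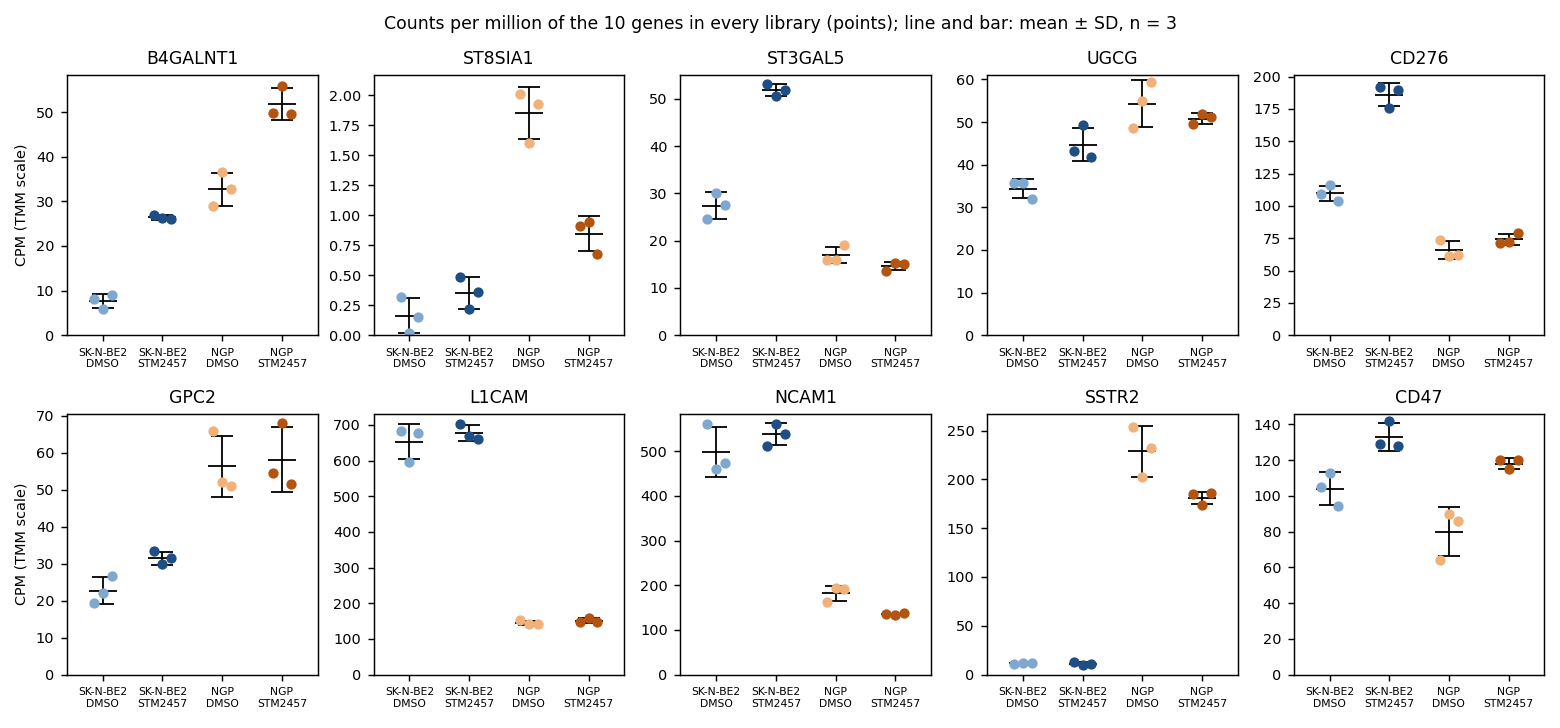
CPM (TMM-scaled, linear y axes from 0) of the 10 genes in each of the 12 libraries by group (x axis), with 1 point per replicate and lines and bars for the mean ± SD (n = 3). B4GALNT1 rises with STM2457 in both lines, from 7.63 to 26.4 CPM in SK-N-BE2 and from 32.7 to 51.8 CPM in NGP, while L1CAM and SSTR2 differ mainly between lines.

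UGCG (chr9:111896814-111935369, plus strand; GRCh38 positions here are as deposited) makes glucosylceramide, the first step towards all gangliosides. It measured 35.6, 35.7 and 31.9 CPM in the SK-N-BE2 DMSO replicates and 43.1, 49.2 and 41.8 CPM with STM2457. All STM2457 replicates lay above all DMSO replicates. The log2 fold change was 0.34 (SE 0.09, edgeR's adjusted p 0.00767), and without STM2457 replicate 2 it was 0.27 and no longer called (edgeR's adjusted p 0.0524). The NGP libraries held 48.6, 54.9 and 59.4 CPM with DMSO and 49.5, 51.8 and 51.2 CPM with STM2457. Those groups overlapped, and the log2 fold change of -0.09 had a 95% interval of -0.34 to 0.15 (edgeR's adjusted p 0.524). The responses differed by 0.45 log2 (SE 0.14, edgeR's adjusted p 0.0264). That call was lost in 5 of the 12 fits without 1 library: without SK-N-BE2 DMSO replicate 3, SK-N-BE2 STM2457 replicate 2, NGP DMSO replicate 3, or NGP STM2457 replicate 1 or 3 (edgeR's adjusted p 0.0871, 0.0815, 0.0724, 0.067 and 0.052).

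ST3GAL5 (chr2:85837120-85905199, minus strand), the GM3 synthase, measured 24.6, 30.2 and 27.5 CPM in the SK-N-BE2 controls and 53.2, 50.6 and 51.8 CPM after STM2457. The groups did not overlap, and each treated library was well above the highest control. The log2 fold change was 0.88 (SE 0.10, edgeR's adjusted p 5.4e-06). The NGP libraries held 15.9, 16.0 and 19.0 CPM with DMSO and 13.7, 15.2 and 15.1 CPM with STM2457. The treated replicates all lay below the controls there, but the log2 fold change of -0.21 (95% interval -0.50 to 0.08) was not called (edgeR's adjusted p 0.216). The responses differed by 1.11 log2 (SE 0.15, edgeR's adjusted p 0.000114).

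ST8SIA1 (chr12:22063773-22437041, minus strand), the GD3 synthase that commits GM3 to the series containing GD2, was the scarcest of the 10 transcripts, with 487 reads over all 12 libraries. In SK-N-BE2 it held 18, 1 and 8 reads with DMSO and 26, 11 and 19 reads with STM2457, or 0.316, 0.0203 and 0.153 CPM and 0.481, 0.216 and 0.364 CPM. The groups overlapped, DMSO replicate 2 was under the 0.0609 CPM that 3 reads amount to in it, and a change was not detectable at this depth. The log2 fold change of 1.04 had a 95% interval of -0.36 to 2.43 (edgeR's adjusted p 0.192), and without DMSO replicate 1 it was 1.94 (edgeR's adjusted p 0.0521). In NGP it held 101, 81 and 99 reads with DMSO and 43, 45 and 35 reads with STM2457, or 2.01, 1.60 and 1.93 CPM and 0.910, 0.946 and 0.678 CPM. All treated libraries lay below all controls. ST8SIA1 fell by 1.13 on the log2 scale in NGP (SE 0.26, edgeR's adjusted p 0.00961), and in a joint fit of all 12 libraries the value was -1.10 and was not called (edgeR's adjusted p 0.0554). The responses differed by 2.17 log2 (SE 0.71, edgeR's adjusted p 0.0327), and by 3.05 without SK-N-BE2 DMSO replicate 1. This call was lost in 6 of the 12 fits without 1 library: without SK-N-BE2 DMSO replicate 3, SK-N-BE2 STM2457 replicate 1 or 3, NGP DMSO replicate 3, or NGP STM2457 replicate 1 or 3 (edgeR's adjusted p 0.069, 0.0982, 0.0628, 0.0607, 0.0554 and 0.069).

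B4GALNT1 (chr12:57623409-57633239, minus strand), which forms GD2 from GD3 and GM2 from GM3, gave the highest fold change of the 10 genes in SK-N-BE2. It measured 8.17, 5.81 and 8.91 CPM with DMSO and 26.9, 26.2 and 26.0 CPM with STM2457. The treated replicates were close together and far above the controls, with a log2 fold change of 1.75 (SE 0.14, edgeR's adjusted p 3.5e-07). In NGP it measured 29.0, 36.5 and 32.7 CPM with DMSO and 49.7, 55.9 and 49.6 CPM with STM2457. The groups did not overlap, and the log2 fold change was 0.66 (SE 0.12, edgeR's adjusted p 0.0028). The responses differed by 1.10 log2 (SE 0.20, edgeR's adjusted p 0.00083). Even with STM2457, each SK-N-BE2 library stayed below each NGP control. Exons of the pseudogene SLC26A10P on the other strand cover 27.1% of the exon length of B4GALNT1, and strand was not used in counting, so its values are uncertain. That gene, listed as SLC26A10 in the files, measured 1.27 and 0.916 CPM with DMSO and STM2457 in SK-N-BE2 and 3.20 and 4.54 CPM in NGP.

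CD276 (chr15:73683966-73714514, plus strand), an immune checkpoint protein of the B7 family, measured 109, 116 and 104 CPM in the SK-N-BE2 controls and 192, 176 and 189.8 CPM after STM2457. All treated replicates lay above all controls, with a log2 fold change of 0.73 (SE 0.08, edgeR's adjusted p 7.46e-06). In NGP it measured 73.6, 61.4 and 61.9 CPM with DMSO and 71.6, 72.3 and 79.2 CPM with STM2457. Those groups overlapped through DMSO replicate 1, and the log2 fold change of 0.18 (95% interval -0.07 to 0.43) was not called (edgeR's adjusted p 0.217). Without that library it was 0.27 and called (edgeR's adjusted p 0.00942). The responses differed by 0.56 log2 (SE 0.13, edgeR's adjusted p 0.00534).

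GPC2 (chr7:100169606-100177381, minus strand) is a heparan sulfate proteoglycan of developing neurons anchored by a lipid. In SK-N-BE2 it measured 19.3, 22.2 and 26.6 CPM with DMSO and 33.3, 29.8 and 31.6 CPM with STM2457. The groups did not overlap, and the log2 fold change was 0.44 (SE 0.12, edgeR's adjusted p 0.00602). The NGP libraries held 65.9, 52.2 and 51.1 CPM with DMSO and 54.5, 68.1 and 51.7 CPM with STM2457. The NGP groups were interleaved, with a log2 fold change of 0.05 (95% interval -0.29 to 0.38, edgeR's adjusted p 0.825). The difference between responses, 0.41 log2 (95% interval -0.03 to 0.84), was not called (edgeR's adjusted p 0.144).

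L1CAM (chrX:153861514-153886173, minus strand), an adhesion molecule of axons, was not called in either line. The SK-N-BE2 controls held 684, 596 and 678 CPM and the treated libraries 703, 669.9 and 662 CPM. For NGP the values were 152, 142 and 141 CPM with DMSO and 148, 159 and 147 CPM after STM2457. Treated and control replicates overlapped in each line. The log2 fold changes were 0.02 (95% interval -0.17 to 0.21) for SK-N-BE2 and 0.06 (95% interval -0.14 to 0.27) for NGP (edgeR's adjusted p 0.875 and 0.595). The difference between responses was -0.03 log2 (95% interval -0.29 to 0.22, edgeR's adjusted p 0.868).

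NCAM1 (chr11:112961247-113278436, plus strand), the neural cell adhesion molecule also known as CD56, measured 562, 461 and 473 CPM in the SK-N-BE2 controls and 513, 562 and 539.8 CPM after STM2457. Those groups overlapped, with a log2 fold change of 0.07 (95% interval -0.13 to 0.28, edgeR's adjusted p 0.531). In NGP it measured 163, 193 and 192 CPM with DMSO and 135, 134 and 137 CPM with STM2457. All treated libraries lay below all controls, and NCAM1 fell by 0.43 on the log2 scale (SE 0.10, edgeR's adjusted p 0.00895). The responses differed by 0.51 log2 (SE 0.14, edgeR's adjusted p 0.0106).

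SSTR2 (chr17:73165010-73176633, plus strand), a G protein-coupled receptor for somatostatin, measured 11.0, 12.3 and 11.7 CPM in the SK-N-BE2 controls and 12.5, 10.1 and 11.3 CPM after STM2457. These groups overlapped, with a log2 fold change of -0.08 (95% interval -0.33 to 0.17, edgeR's adjusted p 0.604). The NGP libraries held 254, 202 and 232 CPM with DMSO and 185, 174 and 186 CPM with STM2457. The treated libraries lay below the controls, and SSTR2 fell by 0.33 on the log2 scale in NGP (SE 0.11, edgeR's adjusted p 0.034). This call did not hold without DMSO replicate 3 (edgeR's adjusted p 0.0972) and without STM2457 replicate 1, 2 or 3 (edgeR's adjusted p 0.106, 0.14 and 0.0991). The difference between responses, 0.27 log2 (95% interval -0.04 to 0.58), was not called (edgeR's adjusted p 0.177).

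CD47 (chr3:108043091-108091862, minus strand) rose in both lines. The SK-N-BE2 controls held 105, 113 and 94.1 CPM and the treated libraries 129, 142 and 128 CPM, with a log2 fold change of 0.32 (SE 0.09, edgeR's adjusted p 0.00788). In NGP it measured 64.2, 89.7 and 86.2 CPM with DMSO and 120.1, 115 and 119.8 CPM with STM2457. In each line the groups did not overlap, and NGP DMSO replicate 1 was the lowest library of all. The NGP log2 fold change was 0.57 (SE 0.13, edgeR's adjusted p 0.00992), and 0.43 without DMSO replicate 1 (edgeR's adjusted p 0.000305). The difference between responses, -0.24 log2 (95% interval -0.58 to 0.11), was not called (edgeR's adjusted p 0.293).

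Replicates did not overlap between STM2457 and DMSO for 6 of the 10 genes in SK-N-BE2, against 62.2% of genes tested, and for 6 of the 10 in NGP, against 54.7%. The non-overlap counts were thus near the background in each line.

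With DMSO alone, the lines carried the 10 transcripts at different levels. Compared with NGP, SK-N-BE2 held more L1CAM and NCAM1 RNA and less SSTR2, ST8SIA1 and B4GALNT1 RNA. All 10 genes were called between the DMSO groups (edgeR's adjusted p under 0.05), 5 higher in each line, against 71.1% of 14731 genes called, 35.7% higher in SK-N-BE2 and 35.4% higher in NGP. In all 10 the replicates of the lines did not overlap, against 68.9% of genes. The median log2 difference, SK-N-BE2 minus NGP, was -0.14 for the 10 genes and 0.00 over all genes.

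SSTR2 gave the widest gap with all libraries, 19.7-fold higher in NGP (log2 difference -4.30, SE 0.12, edgeR's adjusted p 7.66e-13). ST8SIA1 was 10.9-fold higher in NGP (-3.44, SE 0.52, edgeR's adjusted p 3.49e-05), a value that rests on few SK-N-BE2 reads and became -4.32 without SK-N-BE2 DMSO replicate 1 and -2.93 without replicate 2. B4GALNT1 was higher 4.29-fold (-2.10, SE 0.14, edgeR's adjusted p 8.95e-09) and GPC2 2.49-fold (-1.31, SE 0.14, edgeR's adjusted p 1.41e-06). UGCG was higher in NGP by a smaller margin (-0.66, SE 0.10, edgeR's adjusted p 3.49e-05). Among UGCG, ST3GAL5, ST8SIA1 and B4GALNT1, only ST3GAL5 was higher in SK-N-BE2 (0.69, SE 0.11, edgeR's adjusted p 4.87e-05). Of the lactosylceramide synthases on the same route, B4GALT6 was also higher in SK-N-BE2 (1.97, SE 0.16, edgeR's adjusted p 5.01e-08). B4GALT5 was not called (0.08, SE 0.11, edgeR's adjusted p 0.5). L1CAM was 4.50-fold higher in SK-N-BE2 (2.17, SE 0.09, edgeR's adjusted p 2.78e-11) and NCAM1 2.73-fold (1.45, SE 0.10, edgeR's adjusted p 6.94e-09). CD276 and CD47 were higher in SK-N-BE2 by 0.74 (SE 0.09) and 0.38 (SE 0.11) on the log2 scale, with edgeR's adjusted p of 5.36e-06 and 0.00883.

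**Figure D3:**
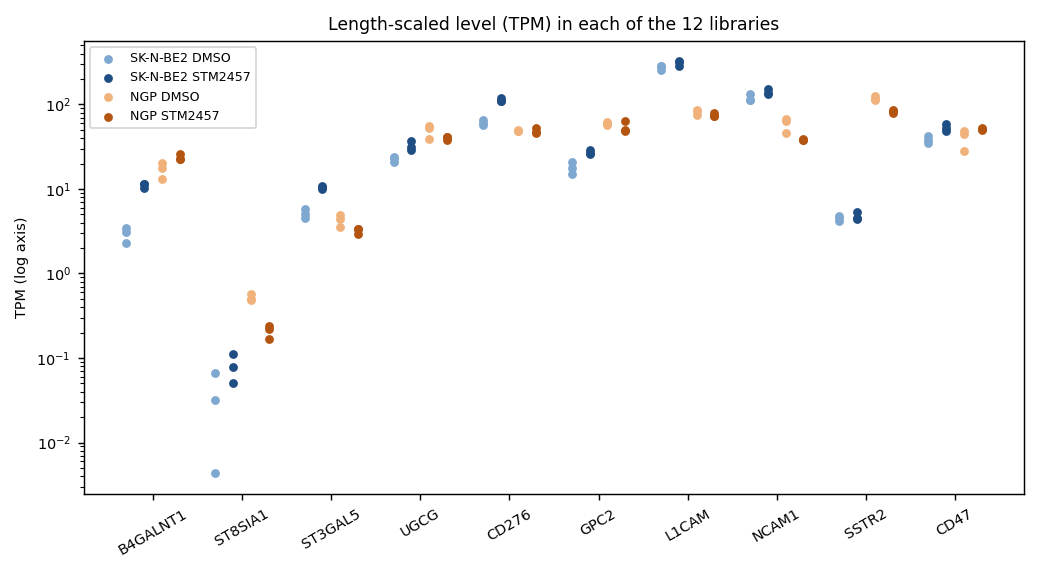
Level per gene length (TPM, log axis) of the 10 genes in each of the 12 libraries, with 1 point per replicate and 3 replicates per group. L1CAM leads in SK-N-BE2 and SSTR2 in NGP, and ST8SIA1 lies far below the other 9 genes in each group.

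Levels of different genes were compared only per length, as TPM, counts divided by gene length and scaled to a fixed total per library. That length covers all exons of a gene, and the orders below hold for that choice of length. In SK-N-BE2 with DMSO the order ran from L1CAM (273 ± 17.4 TPM, SD, n = 3) through NCAM1 (119 ± 12.4), CD276 (60.9 ± 4.02), CD47 (38.5 ± 3.86), UGCG (22.9 ± 1.60) and GPC2 (18.0 ± 2.91 TPM) to ST3GAL5 (5.12 ± 0.584 TPM), SSTR2 (4.51 ± 0.291), B4GALNT1 (2.94 ± 0.595) and ST8SIA1 (0.0341 ± 0.0308 TPM). Replicate ranges of neighbours were apart except for ST3GAL5 and SSTR2. L1CAM exceeded 98.3% of all genes in TPM, and ST8SIA1 exceeded 22.7%. With STM2457 in SK-N-BE2, L1CAM stood at 308 ± 20.3 TPM, NCAM1 at 139.7 ± 9.86, CD276 at 112 ± 4.95 and CD47 at 53.4 ± 5.09 TPM (SD, n = 3). There UGCG (32.4 ± 4.12 TPM) and GPC2 (27.2 ± 1.74) overlapped, as did B4GALNT1 (11.0 ± 0.630) and ST3GAL5 (10.5 ± 0.495), so that B4GALNT1 stood above SSTR2 (4.76 ± 0.508 TPM), the reverse of their places with DMSO. ST8SIA1 was again last, at 0.0804 ± 0.0303 TPM.

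In NGP with DMSO the order began with SSTR2 (119 ± 6.06 TPM) and L1CAM (81.8 ± 5.63 TPM, SD, n = 3). GPC2 (59.8 ± 2.72 TPM), NCAM1 (59.3 ± 11.4), UGCG (49.2 ± 9.24), CD276 (48.9 ± 0.776) and CD47 (40.5 ± 10.7 TPM) followed, and no 2 neighbours among these 5 were separated by their replicate ranges. B4GALNT1 (17.2 ± 3.63 TPM), ST3GAL5 (4.29 ± 0.722) and ST8SIA1 (0.521 ± 0.0430 TPM) closed the order. With STM2457 in NGP, SSTR2 (83.2 ± 2.96 TPM) and L1CAM (75.0 ± 3.47) still led. GPC2 (54.5 ± 8.36 TPM), CD47 (51.7 ± 1.25) and CD276 (48.9 ± 3.28) overlapped in sequence, as did UGCG (40.1 ± 1.43) and NCAM1 (38.3 ± 0.794 TPM). B4GALNT1 (23.6 ± 1.75 TPM), ST3GAL5 (3.24 ± 0.231) and ST8SIA1 (0.210 ± 0.0348 TPM) were last. By these gene lengths, the GD3 synthase transcript was thus the scarcest of the 4 enzymes in each group, and UGCG the most abundant. The lengths cover all exons of a gene: 16300 bases for ST3GAL5, 7888 for B4GALNT1 and 4567 for UGCG. Their canonical transcripts are shorter, at 4366, 5368 and 3959 bases. The order among ST3GAL5, B4GALNT1 and UGCG may therefore depend on the length used. An order by transcript length was not tested.

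B4GALNT1 was one of many genes of its stretch of chromosome 12 that were higher in NGP. Of 36 genes within 500 kb, 33 were tested, of which 22 were called higher in NGP (35.4% of all genes) and 4 higher in SK-N-BE2 (35.7%). Their median log2 difference, SK-N-BE2 minus NGP, was -0.97, against 0.00 over all genes. The widest gaps were those of ATP23 (-5.69, SE 0.17, edgeR's adjusted p 2.36e-12), INHBC, which encodes an inhibin subunit (-5.32, SE 0.34, edgeR's adjusted p 3.54e-09), and CDK4, the cell cycle kinase (-3.98, SE 0.12, edgeR's adjusted p 1.85e-12). CDK4 measured 118 CPM in SK-N-BE2 and 1869 CPM in NGP with DMSO. From AGAP2 to ATP23, midpoints over 100 kb beyond B4GALNT1, all 11 genes tested were called higher in NGP, by log2 differences of -2.28 to -5.69. OS9 lies between that run and B4GALNT1 and was not called, at 0.16 (SE 0.11, edgeR's adjusted p 0.21). Of the nearest genes on the other side, KIF5A, PIP4K2C and AC025165.6 were not called. Their values were -0.20, -0.02 and -0.75 (edgeR's adjusted p 0.168, 0.904 and 0.152). DTX3, ARHGEF25 and SLC26A10 were called higher in NGP, at -0.29, -0.56 and -1.33, each smaller in size than B4GALNT1. The run, OS9 and these nearest genes were singled out after their values were seen. The bearing of the run on the B4GALNT1 level was not tested.

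**Figure D4:**
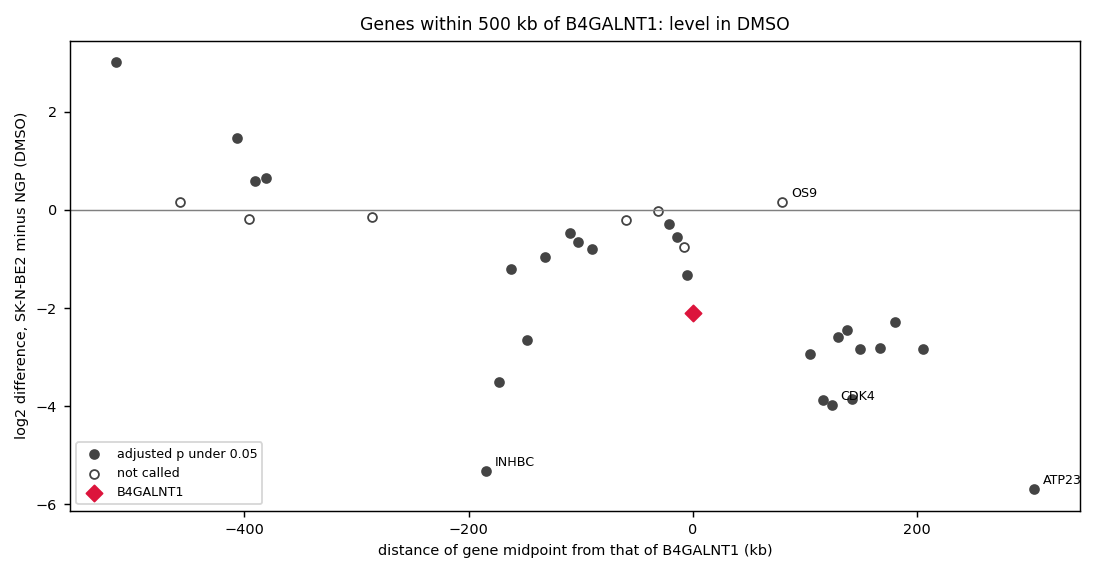
Log2 difference in level with DMSO, SK-N-BE2 minus NGP (y axis), of the 33 tested genes around B4GALNT1 by distance of gene midpoints (x axis, kb); filled points have an adjusted p by edgeR under 0.05. Most points lie below 0, and the 11 genes beyond 100 kb on the right lie between -2.28 and -5.69.

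The patterns most like that of B4GALNT1 over the 12 libraries, by Pearson r of log2 CPM among 9800 genes of at least 10 CPM on average, were those of MCM8 (r = 0.992), SLC6A6 (r = 0.989) and CLCN6 (r = 0.987). MCM8, a helicase of DNA repair, measured 8.30, 27.6, 34.8 and 59.4 CPM in SK-N-BE2 DMSO, SK-N-BE2 STM2457, NGP DMSO and NGP STM2457. For ST8SIA1, among 9801 genes, they were BAG6 (r = 0.961), TAF6 (r = 0.953) and TAB1 (r = 0.951). BAG6 measured 241, 251, 299.9 and 287 CPM in the same order of groups. That span is far narrower than that of ST8SIA1, at 0.163, 0.354, 1.85 and 0.845 CPM. Pearson r does not reflect the size of a change, and ST8SIA1 rests on few reads. The 12 points share 2 lines and the same libraries, so these r values are descriptions of likeness without a test.

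The pentamer GGACT, the core of the sequence METTL3 methylates, was counted in the canonical GENCODE 44 transcript of each gene. Over 20001 transcripts its median density was 0.926 per kb, and 87.9% held at least 1. It occurred at 0.373 per kb in B4GALNT1 and 0.229 per kb in ST3GAL5, at the 17.3 and 13.2 percentiles. UGCG (0.505 per kb) and ST8SIA1 (0.721) also lay below the median. CD47 (0.945 per kb), L1CAM (1.17), NCAM1 (1.20), CD276 (1.21), SSTR2 (1.56) and GPC2 (1.57 per kb) lay above it. Thus the 4 enzymes had fewer matches per kb than the 6 surface targets, but these densities rest on few matches in 1 transcript per gene. UGCG, ST3GAL5, ST8SIA1 and B4GALNT1 held 2, 1, 7 and 2 matches, and the surface targets 4 to 12. Methylation was not measured, and a match is not a methylated site.

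Other genes of the routes were followed in 11 lists holding 97 genes besides the 10. Counts below leave the 10 out and use the same calls, to be read against 26.9% of all genes higher and 27.8% lower in SK-N-BE2, and in NGP against 19.4% higher and 22.2% lower. Values are log2 fold changes, STM2457 minus DMSO, each called at an adjusted p by edgeR under 0.05 unless stated otherwise.

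In ceramide and lactosylceramide supply, 4 of 10 tested genes rose and 3 fell in SK-N-BE2 (median 0.06), and 2 rose and 3 fell in NGP (median -0.01). The lactosylceramide synthases B4GALT5 and B4GALT6, which act between UGCG and ST3GAL5, rose in SK-N-BE2 by 1.25 (SE 0.08) and 0.74 (SE 0.09). B4GALT5 went from 73.6 to 179.6 CPM and was also called in NGP (0.43), a call lost without STM2457 replicate 1, 2 or 3 (edgeR's adjusted p 0.103, 0.0537 and 0.0819). Their responses exceeded those in NGP by 0.83 and 1.07 log2 (edgeR's adjusted p 0.000982 and 0.00229). The ceramide synthase CERS4 fell in both lines (-1.11 and -1.06). In NGP, DEGS1, the desaturase that completes ceramide, rose (0.47), and CERS5 fell (-0.48), a call lost without any 1 of STM2457 replicates 1 to 3 (edgeR's adjusted p 0.0583, 0.135 and 0.093).

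Among the other ganglioside transferases, 1 of 8 tested rose and 4 fell in SK-N-BE2 (median -0.38), and 3 rose and 2 fell in NGP (median 0.21). ST6GALNAC5, which adds a further sialic acid to complex gangliosides, rose in SK-N-BE2 by 1.86 (SE 0.10), from 6.52 to 24.2 CPM, with edgeR's adjusted p at 1.24e-08, and by 0.64 in NGP. ST6GALNAC3 fell in SK-N-BE2 (-0.51) and rose in NGP (0.74), and ST6GALNAC4 fell in both (-0.42 and -1.43). ST6GALNAC6 fell in NGP (-1.04), but the call was lost without DMSO replicate 1 or 2 or STM2457 replicate 1, 2 or 3 (edgeR's adjusted p 0.0758, 0.0835, 0.123, 0.0829 and 0.0706). Of enzymes that draw on the same precursors, 1 of 2 tested rose and 1 fell in SK-N-BE2, and 0 of 4 rose and 3 fell in NGP (median -0.76). SGMS1, a sphingomyelin synthase, fell in both lines (-0.46 and -0.99). B3GNT5, which opens the lacto series, rose in SK-N-BE2 (1.49). UGT8, which makes galactosylceramide, fell in NGP (-0.53), and was not called in a joint fit of all 12 libraries (edgeR's adjusted p 0.0768).

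In glycosphingolipid breakdown, 2 of 13 tested genes rose and 2 fell in SK-N-BE2, and 4 rose and 0 fell in NGP, with a median of 0.14 in each line. GM2A, the activator protein for GM2 hydrolysis, rose in NGP by 2.34 (SE 0.29), from 0.889 to 4.51 CPM (edgeR's adjusted p 0.000471). It stayed at 21.9 and 22.1 CPM in SK-N-BE2 (-0.02, edgeR's adjusted p 0.904). GLA, which removes a terminal galactose, rose in both lines (1.34 and 0.92), NEU1, a lysosomal sialidase, rose in SK-N-BE2 (0.63), and HEXA, which cleaves GM2, rose in NGP (0.56). GALC, which degrades galactosylceramide, fell in SK-N-BE2 (-0.53). In sialic acid supply and O-acetylation, 2 of 7 rose and 2 fell in SK-N-BE2 (median 0.07), and 1 of 6 rose and 0 fell in NGP (median 0.10). GNE, the first enzyme of sialic acid synthesis, rose in both lines (0.92 and 0.75). NANS and SIAE, a sialic acid synthase and a sialate O-acetylesterase, fell in SK-N-BE2 (-0.46 and -0.75), with SIAE not called in the joint fit (edgeR's adjusted p 0.0504).

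**Figure D5:**
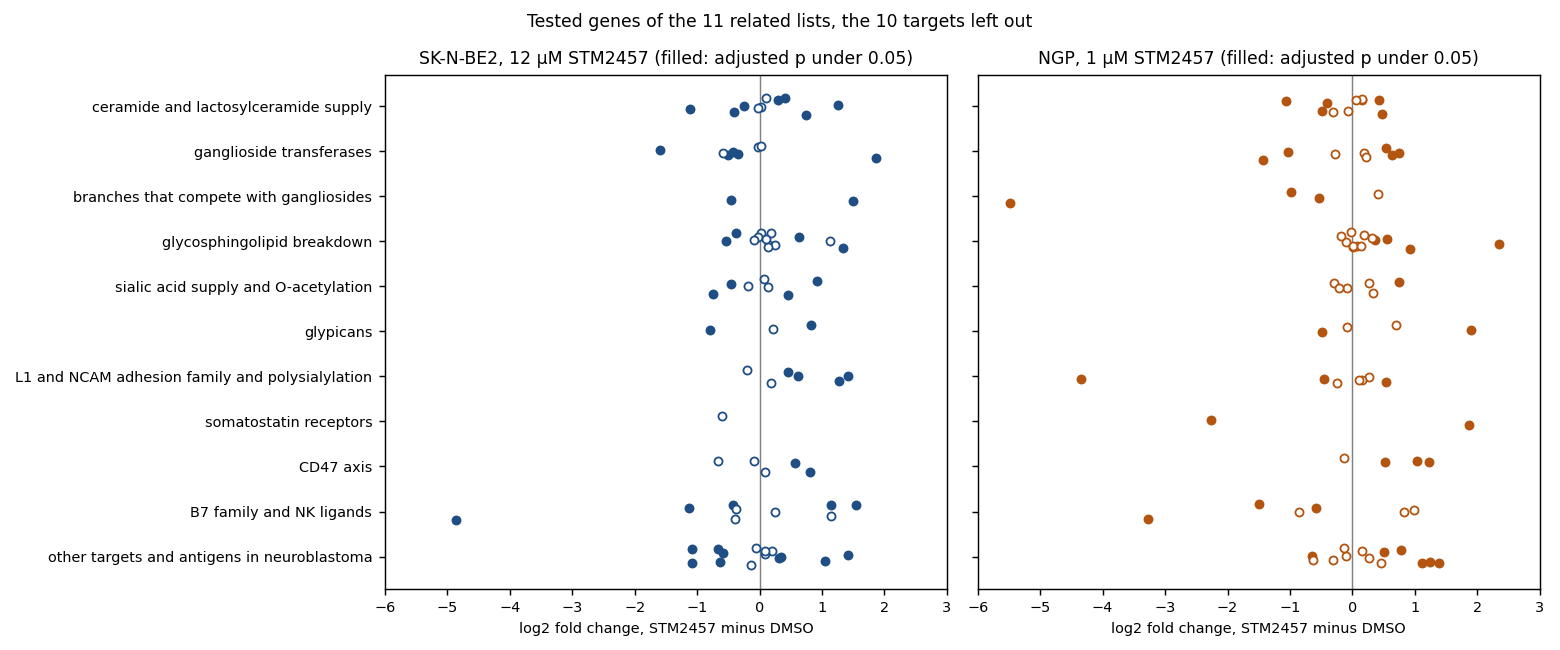
Log2 fold change, STM2457 minus DMSO (x axis), of each tested gene in the 11 lists (y axis), with the 10 targets left out, in SK-N-BE2 (left) and NGP (right); filled points have an adjusted p by edgeR under 0.05. Most lists hold genes on each side of 0, and in the adhesion list the 4 called genes in SK-N-BE2 lie right of 0.

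In the glypican family, 1 of 3 tested rose and 1 fell in SK-N-BE2, and 1 of 4 rose and 1 fell in NGP. GPC3 rose in both lines (0.82 and 1.90), GPC6 fell in SK-N-BE2 (-0.79), and GPC1 fell in NGP (-0.48). The GPC1 call was lost without DMSO replicate 3 or STM2457 replicate 1 or 3 (edgeR's adjusted p 0.0842, 0.098 and 0.11). In the L1 and NCAM adhesion family with its polysialylating enzymes, 4 of 6 tested rose and 0 fell in SK-N-BE2 (median 0.53), and 1 of 7 rose and 2 fell in NGP (median 0.11). ST8SIA2, which puts polysialic acid on NCAM1, rose in both lines (1.42 and 0.54). In SK-N-BE2 the L1 relative NRCAM rose from 363 to 899 CPM (1.27, SE 0.11, edgeR's adjusted p 1.08e-06), and NCAM2 rose as well (0.61). CHL1, another L1 relative, fell in NGP from 11.3 to 0.554 CPM (-4.35, SE 0.34, edgeR's adjusted p 4.09e-05) and had 0 reads in each SK-N-BE2 library. NFASC fell in NGP (-0.45), a call lost without DMSO replicate 2 or 3 or STM2457 replicate 1, 2 or 3 (edgeR's adjusted p 0.109, 0.0991, 0.0889, 0.141 and 0.116).

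Of the other somatostatin receptors, 0 of 1 tested was called in SK-N-BE2, and 1 of 2 rose and 1 fell in NGP. SSTR3 fell in NGP from 14.5 to 3.03 CPM (-2.26, SE 0.17, edgeR's adjusted p 3.71e-05), and SSTR1 rose from 0.420 to 1.53 CPM (1.86, SE 0.28, edgeR's adjusted p 0.00109). Around CD47, 2 of 5 tested genes rose and 0 fell in SK-N-BE2 (median 0.09), and 3 of 4 rose and 0 fell in NGP (median 0.78). THBS1, a secreted ligand of CD47, rose in both lines (0.80 and 1.22). SIRPA, its receptor on macrophages, rose in SK-N-BE2 (0.57). CALR, a chaperone that promotes engulfment when exposed at the surface, rose in NGP (1.04). QPCTL, which modifies the CD47 end that SIRPA binds, rose in NGP (0.52), a call lost without DMSO replicate 2 or 3 or STM2457 replicate 1, 2 or 3 (edgeR's adjusted p 0.0643, 0.0752, 0.0824, 0.0604 and 0.0765).

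Among other B7 proteins and ligands of natural killer cells, 2 of 9 tested rose and 3 fell in SK-N-BE2 (median -0.38), and 0 of 6 rose and 3 fell in NGP (median -0.72). ULBP1, a ligand of the activating receptor NKG2D, fell from 30.6 to 1.07 CPM in SK-N-BE2 (-4.86, SE 0.20, edgeR's adjusted p 1.04e-09) and from 5.96 to 0.617 CPM in NGP (-3.27, SE 0.25, edgeR's adjusted p 4.01e-05). NCR3LG1 (B7-H6), a ligand of NKp30, rose in SK-N-BE2 (1.15, SE 0.21), from 24.1, 10.6 and 17.6 CPM to 34.1, 43.6 and 41.2 CPM. In NGP it spread widely with DMSO, at 21.1, 93.0 and 59.3 CPM, and measured 18.0, 23.9 and 19.3 CPM with STM2457, so those groups overlapped. The NGP value of -1.50 (SE 0.44, edgeR's adjusted p 0.0236) was not called without DMSO replicate 2 or 3 or STM2457 replicate 1, 2 or 3 (edgeR's adjusted p 0.0585, 0.0601, 0.0806, 0.0603 and 0.0695). VTCN1 (B7-H4) rose in SK-N-BE2 (1.55), and PVR fell in both lines (-0.42 and -0.59). Of other antigens considered in neuroblastoma, 4 of 14 tested rose and 5 fell in SK-N-BE2 (median 0.01), and 5 of 13 rose and 1 fell in NGP (median 0.26). CD24 rose in SK-N-BE2 (1.41), where the death receptor gene TNFRSF10B and the receptor kinase gene ERBB2 fell (-1.09 each), ERBB2 also in NGP (-0.64). In NGP, the receptor kinase genes EGFR (1.38) and ALK (1.25) and the noradrenaline transporter gene SLC6A2 (1.11), whose protein takes up the imaging agent MIBG, rose. SLC6A2 also rose in SK-N-BE2 (1.05). EGFR was called there at 0.35, but not without DMSO replicate 2 or 3 or STM2457 replicate 2 or 3 (edgeR's adjusted p 0.107, 0.133, 0.151 and 0.052). ALK went from 30.9 to 73.4 CPM. Exons of other genes together cover 13.5% to 47.0% of the exon length of HEXA, B3GNT5, SLC6A2, GLA, PVR, SIAE and ST6GALNAC6, so their values are uncertain.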

How the data were processed

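Polyadenylated RNA of 12 libraries was sequenced, and samples were grouped by line and treatment from their titles. The authors ran featureCounts 2.0.5, per the file headers, over exons of protein-coding GENCODE 33 genes and summed them by gene name. Each deposited value is an unnormalized whole count. The submitters' processing notes name FastQC 0.11.5, Trimmomatic 0.36, HISAT2 2.1.0 and Subread 1.5.3 with GRCh38. The headers show that strand was not used, multi-mapping reads were left out, and reads of a pair were counted singly. Accordingly 72.1% to 75.4% of counts from 1 to 20 were even, and a fragment can add 2 to a count. The headers name different runs for the 2 lines.

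The fits were made in edgeR 4.0.16 under R 4.3.3, for each line with its 6 libraries, and for the difference between responses and the DMSO levels with all 12. They used filterByExpr (minimum count 10), TMM, the quasi-likelihood test and Benjamini-Hochberg adjustment over all genes tested, with a threshold of 0.05. Standard errors and 95% intervals were derived from each F statistic. TPM used the gene lengths in the files. The fits were tested on simulated data. Depth was 47242379 to 58159937 reads per library. Counting error is small except for ST8SIA1 and other genes of few reads, and 3 replicates per group limit the rest.

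The 10 genes, the 11 lists and the tests were chosen with earlier results of these data known. Besides the 10 genes and METTL3, the genes named were up to 3 per list and line with the largest absolute change. These had to be called, to reach 1 CPM in the higher group and to show no overlap of replicates. Also named were the 3 genes most like B4GALNT1 and ST8SIA1, and the 3 within 500 kb of B4GALNT1 with the largest DMSO differences. Genes with over 10% of their exon length shared with another gene in GENCODE 44 are treated as uncertain. Some marker genes are not reported here. Alternatives were DESeq2 size factors, no filter, a filter at a mean of 1 CPM, upper-quartile factors, a replicate block, each library left out in turn, the Wald test of DESeq2 1.42.0, halved counts, joint or DMSO-only fits, and RPKM for TPM.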

Additional observations from a re-analysis of the deposited data

Results flagged for a closer look

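For METTL3 and 30 of the targets and list genes described, the response to STM2457 differed between the lines in a test of the difference itself over all 12 libraries (edgeR quasi-likelihood, adjusted p under 0.05). Over all genes, 30.9% of 14731 were called in the same test. The list genes counted here had been named for large called changes in a line, so their number is not a result about the lists. The lines also differ in dose and run, which cannot be told apart. Values are log2 fold change in SK-N-BE2 minus that in NGP. For METTL3 the value was -0.39, a call lost in 7 of the 12 fits without 1 library.

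On the route to GD2 the difference was positive at each step tested and called: 0.45 for UGCG, 0.83 for B4GALT5, 1.07 for B4GALT6, 1.11 for ST3GAL5, 2.17 for ST8SIA1 and 1.10 for B4GALNT1. The ST8SIA1 value was 3.05 without SK-N-BE2 DMSO replicate 1. The calls of UGCG and ST8SIA1 were lost in fits without 1 library, with edgeR's adjusted p at its highest 0.0871 for UGCG (SK-N-BE2 DMSO replicate 3 left out) and 0.0982 for ST8SIA1 (SK-N-BE2 STM2457 replicate 1 left out). Among surface targets it was 0.56 for CD276 and 0.51 for NCAM1. The ceramide desaturase DEGS1 gave -0.49 and the sphingomyelin synthase SGMS1 0.54. The SGMS1 call was lost without SK-N-BE2 DMSO replicate 3 or NGP STM2457 replicate 1 (edgeR's adjusted p 0.0678 and 0.0515). The sialyltransferases ST6GALNAC5, ST6GALNAC4 and ST6GALNAC3 gave 1.23, 1.02 and -1.24, and the breakdown genes GALC and GM2A gave -0.53 and -2.35.

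Glypicans differed in both directions, at 0.71 for GPC1, -0.69 for GPC6 and -1.07 for GPC3, with GPC6 not called without SK-N-BE2 STM2457 replicate 3 (edgeR's adjusted p 0.0541). In the adhesion family ST8SIA2 gave 0.89, NRCAM 1.02 and NCAM2 0.87. SSTR3 gave 1.67, SIRPA 0.73 and CALR -1.11. SIRPA was called in 3 of the 12 fits without 1 library, those without NGP DMSO replicate 1 or 3 or SK-N-BE2 STM2457 replicate 3, and otherwise had edgeR's adjusted p up to 0.104. NCR3LG1 gave 2.65 and kept that call in each fit without 1 library, while its NGP groups overlapped and its NGP call did not hold in 5 of 6 such fits. ULBP1, which fell in both, gave -1.58. Of the other antigens, CD24 gave 1.16, TNFRSF10B -1.55, EGFR -1.03 and ALK -1.04. EGFR was not called without SK-N-BE2 DMSO replicate 1, SK-N-BE2 STM2457 replicate 1 or 3, NGP DMSO replicate 3 or NGP STM2457 replicate 3 (edgeR's adjusted p up to 0.0832). ALK was not called without SK-N-BE2 DMSO replicate 3, SK-N-BE2 STM2457 replicate 3 or NGP STM2457 replicate 1 (edgeR's adjusted p up to 0.0712). TNFRSF10B was at 0.256 and 0.352 CPM in NGP, so its NGP response rests on few reads. It was called in 3 of the 12 fits without 1 library, those without NGP DMSO replicate 1 or 2 or NGP STM2457 replicate 2. Its value was -2.43 without NGP DMSO replicate 2. The other differences given here were called in each of the 12 fits.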

How the results depend on the processing

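In fits without 1 library, genes called ranged from 6497 to 7849 in SK-N-BE2, 3816 to 7897 in NGP, 3701 to 6274 for the difference between responses and 9941 to 11072 for the DMSO levels. Of the 10 genes, 5 to 6, 4 to 6, 4 to 6 and 10 were called. The 7 changes of sign were all of values near 0 that were not called. L1CAM in SK-N-BE2 went from 0.02 to -0.03 with upper-quartile factors, -0.04 without DMSO replicate 2 and -0.01 without STM2457 replicate 1 (range without 1 library -0.04 to 0.05). GPC2 in NGP went from 0.05 to -0.01 and -0.02 without DMSO replicates 2 and 3 and to -0.06 without STM2457 replicate 2 (range -0.06 to 0.17). The L1CAM difference between responses went from -0.03 to 0.00 without NGP STM2457 replicate 2 (range -0.11 to 0.00). By RPKM on the TMM scale, 8 of 10 genes kept their place in the NGP DMSO order, with UGCG and CD276 exchanged. RPKM used the same gene lengths, so the choice of length was not tested.

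Replicate numbers are shared across groups, but same-numbered replicates did not deviate together (r -0.0465, 0.0778 and 0.0369 in SK-N-BE2, 0.014, -0.0554 and 0.0159 in NGP), so the numbers were not taken to pair the samples. With a replicate block, 7522, 5026, 4025 and 10147 genes were called in the 4 comparisons, and 6, 4, 6 and 10 of the 10 genes. Calls lost under the block were those of SSTR2, GPC1, ST6GALNAC6 and NFASC in NGP (edgeR's adjusted p 0.0572, 0.0518, 0.0727 and 0.0668) and those of the response differences of SIRPA, TNFRSF10B and METTL3 (0.0655, 0.0846 and 0.0649). Scalings moved the median of all genes by at most 0.07 in size (log2; -0.07 for the difference between responses). Under a mean of 1 CPM, ST8SIA1 was not tested in SK-N-BE2 or in the fits of all 12 libraries, and with halved counts it was not tested in SK-N-BE2. Outside the fits without 1 library and the block, SIRPA was also not called with upper-quartile factors (0.0589) nor METTL3 without a filter (0.0576) for the difference between responses, nor EGFR in SK-N-BE2 with upper-quartile factors or in the joint fit (0.0679 and 0.193).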
